A study of Mus musculus with 6 samples.

Results

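The miR-34 family of microRNAs was followed in small RNA of small extracellular vesicles (sEV) that mouse cochlear explants released with or without cisplatin. Members were taken by name, as the rows of the count table for an arm of mmu-miR-34a, mmu-miR-34b or mmu-miR-34c, which gave 4 of the 810 mature miRNAs in the table: mmu-miR-34a-5p, mmu-miR-34b-3p, mmu-miR-34c-3p and mmu-miR-34c-5p. The other arms, mmu-miR-34a-3p and mmu-miR-34b-5p, were not analysed here. Explants of the cochlear sensory epithelium, with the spiral ganglion removed, came from ICR mice of both sexes at postnatal day 3 and were cultured for 48 h in medium with sEV-free serum. The 3 Cis-sEV samples came from explants given 50 µM cisplatin, a platinum drug that damages DNA and is toxic to the ear, and the 3 Ctrl-sEV samples came from explants given an equal volume of PBS. Each sample pooled the medium of about 80 explants, so the values describe pools of tissue and not single animals, and p-values measure the spread between these pools.

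MicroRNAs are cut from a hairpin precursor whose 5p and 3p arms can each become a mature miRNA, and bases 2 to 8 of the mature miRNA, the seed, largely set which messenger RNAs it represses. The miR-34 family is encoded at separate loci, Mir34a on its own and Mir34b with Mir34c in one shared transcript, and both loci are known targets of the transcription factor p53. In many tissues miR-34a is the more widely expressed locus, while miR-34b/c is known for multiciliated epithelia and testis. Its known targets include cell cycle and survival genes such as Ccnd1, Cdk6, Bcl2 and Sirt1. None of these targets, and not p53 itself, was measured in the sEV libraries.

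The sequences counted as the 4 members are shown because they divide the family by seed and show how far the counts of one member can be told from those of another. They are given 5′ to 3′ with the seed in capitals, as the deposited table lists them.
mmu-miR-34a-5p: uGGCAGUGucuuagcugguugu
mmu-miR-34c-5p: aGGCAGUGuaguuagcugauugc
mmu-miR-34b-3p: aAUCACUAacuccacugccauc
mmu-miR-34c-3p: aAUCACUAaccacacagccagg

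The 5p members shared the seed GGCAGUG, and the 3p members shared another, AUCACUA. Over their 22 bases miR-34b-3p and miR-34c-3p had the same first 10 bases and differed at 5 positions counted from the 5′ end, U11C, C12A, U16A, U21G and C22G, with the base of miR-34b-3p first. A full-length read therefore separates them, and a read from the 5′ end of 18 bases still covers U11C, C12A and U16A. No member shared its full sequence with another. The 5p members differed by an edit distance of 5, the fewest bases to substitute, insert or delete. In GRCm38.p6, the build of the files, RefSeq places miR-34a-5p at chr4:150068473-150068494 on the plus strand, miR-34b-3p at chr9:51103574-51103595 and miR-34c-3p at chr9:51103044-51103065, both on the minus strand. The Mir34a hairpin of 102 nt overlaps by 17 bases an exon of Gm37795, a gene model of unsettled status, and its nearest protein-coding gene is Gpr157 at a distance of 18809 bases. The hairpins of Mir34b and Mir34c lie 451 bases apart, both inside an intron of Btg4, which is transcribed from the opposite strand.

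Depth was 1722359 to 1794175 miRNA reads for a Cis-sEV library and 528952 to 718597 for a Ctrl-sEV library. They were not evenly filled at the low end: 586 to 603 miRNAs were detected in each Cis-sEV library and 258 to 311 in each Ctrl-sEV library. A count of 4 to 31 reads was held by 226 to 256 miRNAs of a Cis-sEV library but by only 20 to 32 of a Ctrl-sEV library, although 64 to 79 miRNAs of a Ctrl-sEV library had 32 to 100 reads. Because the deposited counts carry no spike-in, each level below is a share of the library's miRNA reads, given as CPM, the usual read count scaled to a fixed library total, divided by edgeR's TMM factor, and less of a miRNA per vesicle cannot be told apart from fewer vesicles of the kind that carry it. In the edgeR quasi-likelihood test 353 miRNAs could be tested. A miRNA was called at a Benjamini-Hochberg adjusted p of at most 0.05 and a log2 fold change of at least 1 in size. By this rule 83 miRNAs, 23.5% of those tested, were called higher in Cis-sEV, and 106, or 30.0%, were called in either direction. Scaling by total miRNA reads alone moved the split from 83 higher and 23 lower to 97 and 11. Of the 83 called higher, 53 had 0 reads in all Ctrl-sEV libraries and so could only come out higher. Of the 4 miR-34 rows, 3 were tested and 2 were called, both higher, and of these miR-34c-3p had 0 Ctrl-sEV reads.

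**Figure D1:**
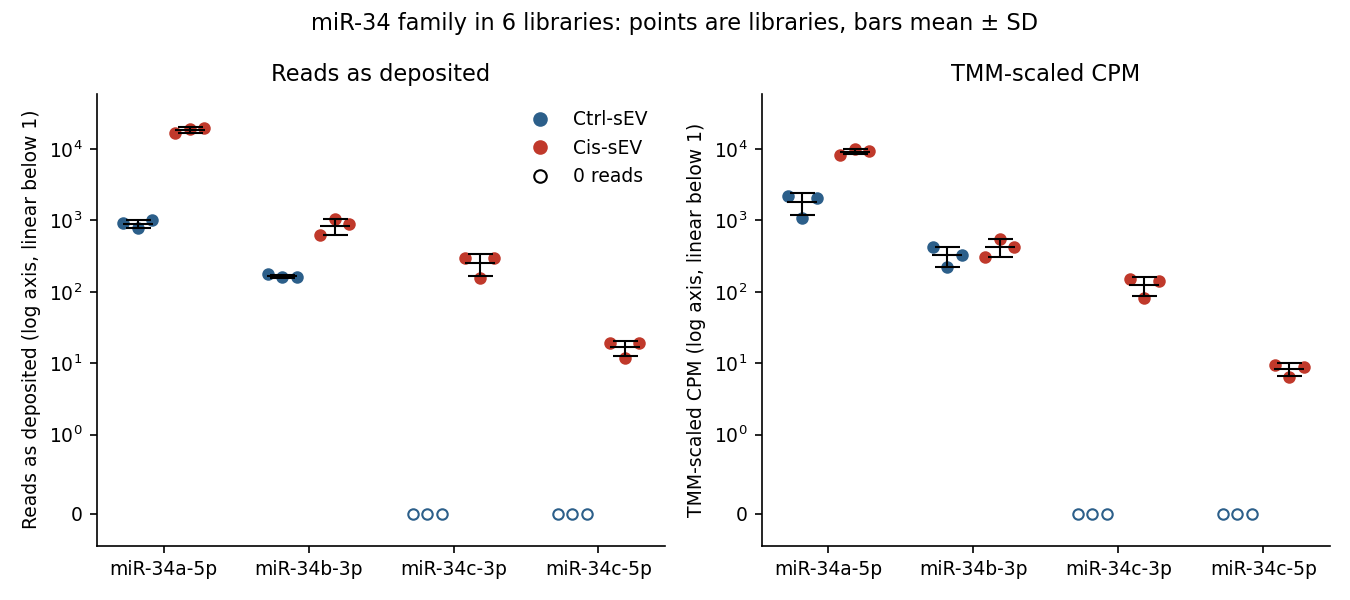
Reads as deposited (left) and TMM-scaled CPM (right) of the 4 miR-34 rows, on an axis that is logarithmic above 1 and linear below it; each point is a library, bars are the mean ± SD of 3 libraries, and open points are 0 reads. The Cis-sEV points of miR-34a-5p lie above all its Ctrl-sEV points on both scales, those of miR-34b-3p overlap once scaled, and both miR-34c arms have reads in Cis-sEV and 0 in Ctrl-sEV.

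miR-34a-5p was by far the most abundant member and rose in Cis-sEV. With cisplatin its counts were 16605, 18817 and 19883 reads, and with PBS they were 918, 778 and 1007. These made up 0.927%, 1.09% and 1.11% of the miRNA reads with cisplatin and 0.170%, 0.108% and 0.190% without it. The groups were clearly apart, and relative to its mean the spread of the scaled levels was wider in Ctrl-sEV (SD 34.6% of the mean) than in Cis-sEV (8.86%). In TMM-scaled CPM the level was 9229 ± 818 (SD, n = 3) in Cis-sEV and 1800 ± 623 (n = 3) in Ctrl-sEV, a ratio of 5.13. The fitted log2 fold change was 2.36 (SE 0.29), with an adjusted p of 0.00502 from edgeR. The median of all 353 tested miRNAs lay at 0.44 on the same scale, so miR-34a-5p stood 1.92 above it. Every other setting tried also called it, with log2 fold changes of 2.14 to 2.74.

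The position of miR-34a-5p among all miRNAs differed too. By mean CPM it was number 57 in Ctrl-sEV and number 30 in Cis-sEV. Among the 83 miRNAs called higher it was the fifth by level in Cis-sEV. Only 18 of those 83 were counted in all 3 Ctrl-sEV libraries, where it was again the fifth by log2 fold change. The 4 above it, miR-140-5p at 5.54, miR-425-3p at 4.37, miR-186-5p at 3.92 and miR-499-5p at 2.64, each had only 1 to 3 reads in any Ctrl-sEV library. No miR-34 member was among the 10 most abundant miRNAs of either group.

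**Figure D2:**
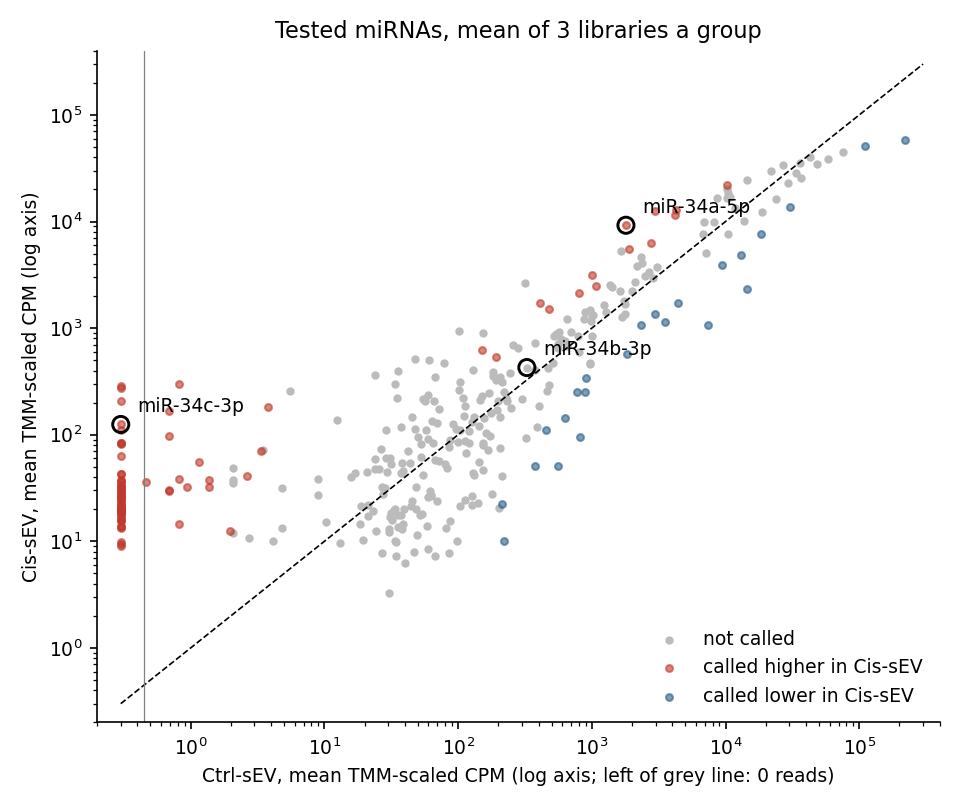
Mean TMM-scaled CPM of each of the 353 tested miRNAs in Ctrl-sEV (horizontal) and Cis-sEV (vertical), both on log axes, with the dashed line marking equal levels and miRNAs with 0 Ctrl-sEV reads drawn left of the grey line. miR-34a-5p lies well above the line among abundant miRNAs, miR-34b-3p lies close to it, and miR-34c-3p lies among the miRNAs with no Ctrl-sEV read.

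miR-34b-3p, the arm counted from the other locus in both groups, did not pass the test. Its counts were 618, 1041 and 888 reads in Cis-sEV and 175, 159 and 161 in Ctrl-sEV, 5.15 times as many on average in the deeper Cis-sEV libraries. Scaled, it stood at 311, 551 and 419 CPM in Cis-sEV and 426, 222 and 332 in Ctrl-sEV, and the ranges overlapped. The means were 427 ± 120 and 327 ± 102 CPM (SD, n = 3 each), with a log2 fold change of 0.39 (SE 0.47, adjusted p = 0.658 from edgeR). That is 0.05 below the median of all tested miRNAs. Without TMM factors the log2 fold change was 0.77 and the CPM ranges did not overlap, but no setting called it. Its rank by mean CPM hardly moved, from 110 to 104.

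miR-34c-3p was counted only in Cis-sEV. It had 299, 156 and 300 reads there and 0 in each Ctrl-sEV library. Had it kept its Cis-sEV share of the scaled reads, the Ctrl-sEV libraries would have held 51.3, 89.4 and 60.5 reads. Its scaled level was 150, 82.5 and 142 CPM in Cis-sEV, a mean of 125 ± 36.9 (SD, n = 3). When 3 reads over the group stand for its 0 reads, it was at least 67.0-fold higher than in Ctrl-sEV. That bound covers counting error only, and not spread between Ctrl-sEV libraries. Of 71 other miRNAs of like level, 41 had no read in at least 1 Ctrl-sEV library. edgeR called miR-34c-3p with an adjusted p of 0.0168. It passed edgeR's filter through its Cis-sEV reads alone, so the test could only find it higher. The call was lost when any one Cis-sEV library was left out, with adjusted p of 0.0899, 0.0846 and 0.0739 without libraries 1, 2 and 3. Without Ctrl-sEV library 2, the deepest of its group, the call held and the bound was 39.6-fold.

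miR-34c-5p, the arm that carries the same seed as miR-34a-5p, was rare. It had 19, 12 and 19 reads in Cis-sEV, 8.29 ± 1.70 CPM (SD, n = 3), and 0 in each Ctrl-sEV library. edgeR's filter asks for 8.19 CPM in 3 libraries, which miR-34c-5p reached in 2, so it was not tested. With the same floor it was at least 4.45-fold higher in Cis-sEV, and at least 2.63-fold without Ctrl-sEV library 2. At its Cis-sEV share only 3.41, 5.94 and 4.02 reads would fall in the Ctrl-sEV libraries. A lower minimum of 5 reads in 3 libraries was met by its Cis-sEV libraries alone. With that minimum miR-34c-5p was tested and called at an adjusted p of 0.00688 by edgeR, and could only come out higher. Without any filter it was not called, at 0.0739.

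How often a miRNA of like level was also at 0 in Ctrl-sEV gives the setting for these zeros. Of all 810 miRNAs, 100, or 12.3%, had reads in each Cis-sEV library and none in Ctrl-sEV, as both miR-34c arms did. Of the 71 other miRNAs with a mean Cis-sEV level within 2-fold of miR-34c-3p, 6 (8.45%) had no read in any Ctrl-sEV library and 41 had none in at least 1 of them. Around miR-34c-5p, 73 of 133 (54.9%) had none in any, and around miR-34b-3p 2 of 55 (3.64%). The absence of miR-34c-5p from Ctrl-sEV was thus shared by most miRNAs of its level, and that of miR-34c-3p by few. The part of the uneven filling of the Ctrl-sEV libraries in either absence was not tested.

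Summed over its 4 rows, the family made up 1.11 ± 0.110% of miRNA reads in Cis-sEV and 0.185 ± 0.0478% in Ctrl-sEV (SD, n = 3 each), a ratio of 5.99 with groups that did not overlap. The exact two-sided permutation test gave p = 0.1, the smallest value that 3 libraries against 3 allow. Most of this sum was miR-34a-5p, with 94.0 to 94.7% of the family's reads with cisplatin and 83.0 to 86.2% with PBS. miR-34b-3p held 3.52 to 5.20% in Cis-sEV but 13.8 to 17.0% without the drug. miR-34c-3p held 0.779 to 1.70% and miR-34c-5p 0.0599 to 0.108% in Cis-sEV. Among tested miRNAs, 133 of 353 (37.7%) had every Cis-sEV library above every Ctrl-sEV library in TMM-scaled CPM, and of the members miR-34a-5p and miR-34c-3p did.

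Ratios of reads within a library need no scaling between libraries. They compare the Mir34a locus with the Mir34b/c locus only through the arms counted, a 5p arm for Mir34a and mostly 3p arms for Mir34b/c. A difference between the loci therefore cannot be told apart from one between arms. All reads of Mir34b/c came to 5.64%, 6.43% and 6.07% of those of Mir34a with cisplatin and to 19.1%, 20.4% and 16.0% with PBS. Every Cis-sEV library thus lay below every Ctrl-sEV library. The log2 ratio differed by -1.61 (SD 0.095 in Cis-sEV and 0.182 in Ctrl-sEV, n = 3 each), and the ratio of the summed reads was 3.02-fold lower. Most of the Mir34b/c reads were miR-34b-3p, whose reads were 3.72%, 5.53% and 4.47% of those of miR-34a-5p in Cis-sEV and again 19.1%, 20.4% and 16.0% in Ctrl-sEV. That ratio was 3.98-fold lower in the summed Cis-sEV reads.

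The 3p arms of Mir34b and Mir34c did not keep one ratio. In the Cis-sEV libraries miR-34c-3p had 48.4, 14.99 and 33.8 reads per 100 reads of miR-34b-3p, and in the Ctrl-sEV libraries 0. At the summed Cis-sEV ratio of 29.6%, the Ctrl-sEV libraries would have held 51.9, 47.1 and 47.7 reads of miR-34c-3p. Had the Ctrl-sEV group held 3 reads in all, its ratio would be 0.606%, and against this limit the ratio was at least 48.9-fold higher in Cis-sEV. Limits of this kind cover counting error only. Against miR-34a-5p, miR-34c-3p came to 1.80%, 0.829% and 1.51% in Cis-sEV, and the summed ratio of 1.37% was at least 12.3-fold above the Ctrl-sEV limit of 0.111%. For miR-34c-5p against miR-34a-5p no difference was detectable at this depth, since the summed Cis-sEV ratio of 0.0904% lay under the same limit. Counting only 5p arms, no difference between the loci was detectable. Of the 5 ratios computed, the 4 others gave an exact two-sided permutation p of 0.1, the smallest possible. After Benjamini-Hochberg adjustment over the 5 it was also 0.1, but this counts the miR-34c-5p ratio at its p of 0.1. For miR-34c-5p against miR-34a-5p the test says nothing, because the number of reads added to counts of 0 sets its outcome: the exact p was 0.1 with 0.5 read added and 0.5 with 1 read.

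**Figure D3:**
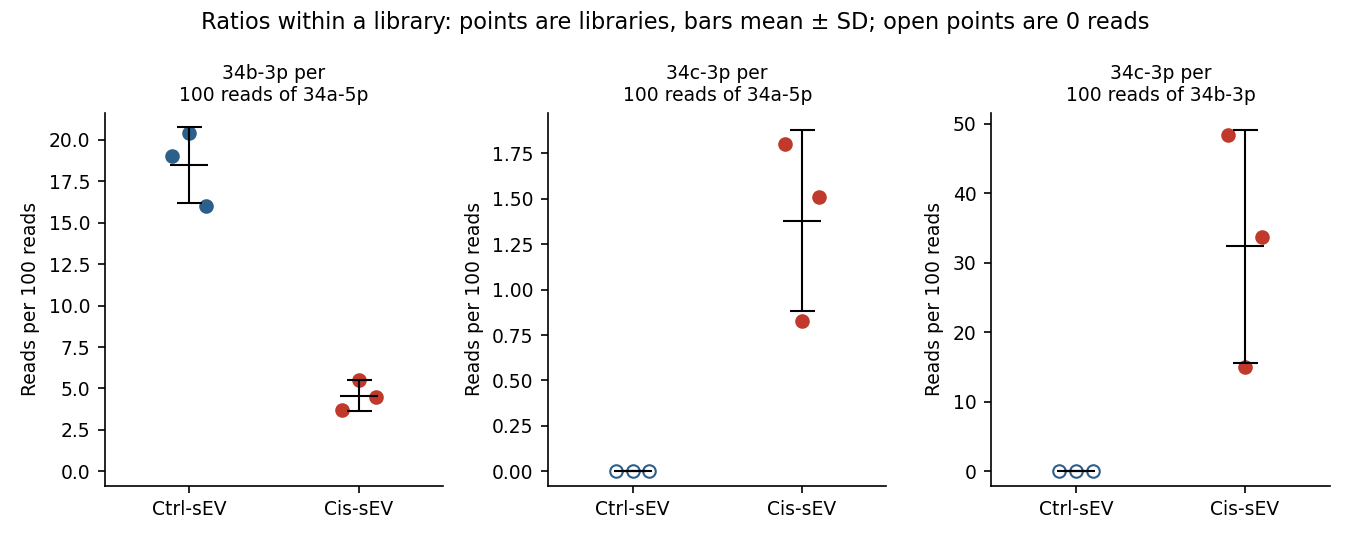
Reads of miR-34b-3p and miR-34c-3p per 100 reads of miR-34a-5p, and of miR-34c-3p per 100 reads of miR-34b-3p, within each library; points are libraries, bars are the mean ± SD of 3, and open points are 0 reads. miR-34b-3p lies at 16.0 to 20.4 reads in Ctrl-sEV and at 3.72 to 5.53 in Cis-sEV, while miR-34c-3p has reads in Cis-sEV alone.

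The miR-34c hairpin was the one precursor of the family with both arms counted. Its 77 nt, at chr9:51103034-51103110 on the minus strand, are shown with the arms as counted in capitals, 5p first.
Mir34c hairpin: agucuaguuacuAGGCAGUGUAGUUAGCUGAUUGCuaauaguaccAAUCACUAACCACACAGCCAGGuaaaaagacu

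In Cis-sEV the 3p arm took 94.0% of the miR-34c reads in library 1 (95% Clopper-Pearson interval 90.8 to 96.4%), 92.9% in library 2 (87.9 to 96.3%) and 94.0% in library 3 (90.9 to 96.4%). That is 15.7, 13 and 15.8 reads of the 3p arm per read of the 5p arm, a share that hardly varied although the number of reads did. Among the 127 miRNAs with both arms in the table and at least 100 reads in Cis-sEV, the median 3p share was 16.3%, 45 had over 50%, and 30, miR-34c included, were at or above the share of miR-34c. Ctrl-sEV had no read of either arm and so gives no share.

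**Figure D4:**
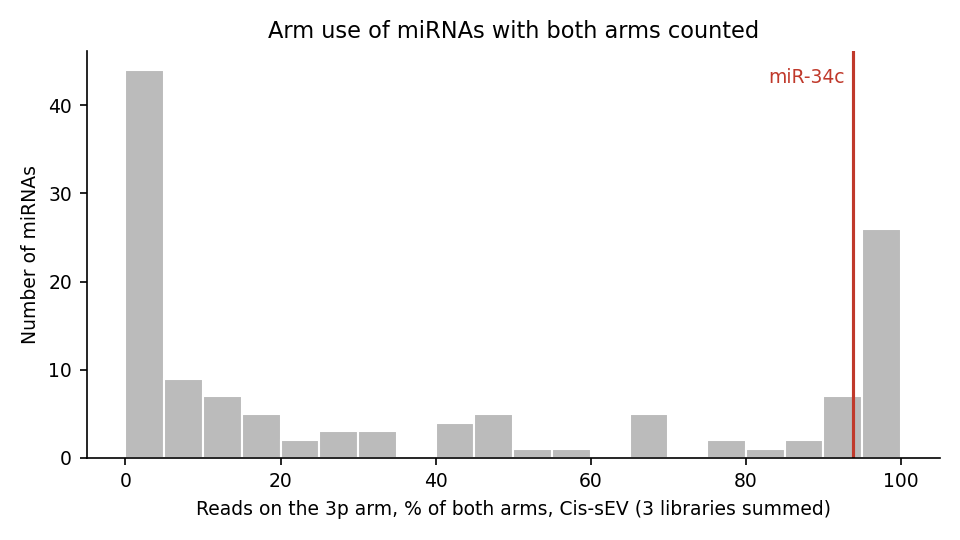
Number of miRNAs (vertical) by the share of their reads on the 3p arm in Cis-sEV, 3 libraries summed (horizontal, %), for the 127 miRNAs with both arms and at least 100 reads; the red line marks miR-34c. Shares pile up near both ends, with a median of 16.3%, and miR-34c lies near the upper end.

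Other rows of the table carried the 5p seed of the family. miR-449a-5p, a relative of miR-34 known for multiciliated cells, is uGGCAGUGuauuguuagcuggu at chr13:113037549-113037570 on the plus strand and differs from miR-34a-5p by an edit distance of 6. It had 58, 8 and 18 reads in Cis-sEV and 0, 46 and 54 in Ctrl-sEV, with a log2 fold change of -2.06 (SE 1.79, adjusted p = 0.494 from edgeR). A predicted miRNA, gGGCAGUGucuuagcugga, had 1 read in 1 Cis-sEV library. In both groups miR-34a-5p thus held the bulk of the reads with this seed.

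Because p53 is known to act on other miRNAs as well, 26 of them were taken from textbook knowledge: those it induces or helps to process, those it represses, and those that target its messenger RNA. Of the 26, 23 had a row and 20 were tested. Of these, 1 was called higher and 2 lower, 15% against 30.0% of all tested miRNAs. The make-up of the 2 sets differed. Each of the 20 had reads in Ctrl-sEV, while 53 of the 353 tested had none and were all called higher. The values for all tested miRNAs given here and below include such miRNAs. The comparison of called shares also depended on the setting. Without Ctrl-sEV library 3, 9 of the 20 were called, 45% against 38.3%, and without Cis-sEV library 1 the shares were 15.8% against 15.5%. With all libraries they were 13.6% against 13.9% by DESeq2, 10% against 12.2% by limma-voom and 10% against 6.80% with a replicate block. Other scalings kept the lower share, as at 15% against 28.3% with TMMwsp factors. In TMM-scaled CPM of all libraries, 9 of the 20 had every Cis-sEV library above every Ctrl-sEV library (45% against 37.7%). The median log2 fold change was 0.91, against 0.44 over all tested.

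The known p53-induced or p53-processed miRNAs were 14, of which 12 had a row and 10 were tested. They had no call by edgeR, DESeq2 or limma-voom, against 30.0%, 13.9% and 12.2% of all miRNAs tested by each. Each of the 10 had reads in Ctrl-sEV, while 53 of the 353 tested by edgeR had none and could only come out higher. The 30.0% and the 37.7% below include these 53. Of the 10, 4 had every Cis-sEV library above every Ctrl-sEV library, 40% against 37.7% of all tested. Their median log2 fold change was 0.83, and 1 had an unadjusted p under 0.05 from edgeR. That one, miR-143-3p, whose processing p53 is known to aid, was at 0.77 (adjusted p = 0.0141 from edgeR), under the limit on size. miR-192-5p, a classical p53 target, was at 0.98 (SE 0.85, adjusted p = 0.494), with 734, 654 and 767 reads against 81, 230 and 13. miR-215-5p, of the same family, was too rare to test, with 8, 8 and 12 reads in Cis-sEV and 0 in Ctrl-sEV. miR-141-3p had the highest log2 fold change of the list, 2.54 (SE 1.18, adjusted p = 0.157), with Ctrl-sEV counts of 1, 155 and 116. miR-34a-5p, at 2.36 with an SE of 0.29, was thus measured more tightly than that one.

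Of 6 miRNAs of the miR-17-92 cluster, known to be repressed by p53, 5 were tested and 1 was called. miR-92a-3p fell by 1.43 on the log2 scale (adjusted p = 0.00502 from edgeR). miR-17-5p, from the same cluster, was at 4.53 (SE 1.62, adjusted p = 0.0720), with 92, 92 and 108 reads against 0, 0 and 3. Of 6 miRNAs known to target p53 messenger RNA, 5 were tested: miR-25-3p rose by 2.07 (SE 0.42, adjusted p = 0.0105) and miR-125a-5p fell by 1.70 (adjusted p = 0.0140). miR-30d-5p at 0.98 and miR-125b-5p at 0.94 were just under the limit on size. By sign alone, 18 of the 20 tested p53-linked miRNAs had a log2 fold change above 0, 90% against 62.3% of all tested. The others were the 2 called lower. The 62.3% includes 53 miRNAs with 0 Ctrl-sEV reads, which could only be above 0, while each of the 20 had Ctrl-sEV reads. The count of 18 pools miRNAs that p53 is known to induce with those it is known to repress. Of the tested repressed ones miR-17-5p, miR-18a-5p (1.97), miR-20a-5p (1.91) and miR-19b-3p (0.23) were above 0 and miR-92a-3p below.

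**Figure D5:**
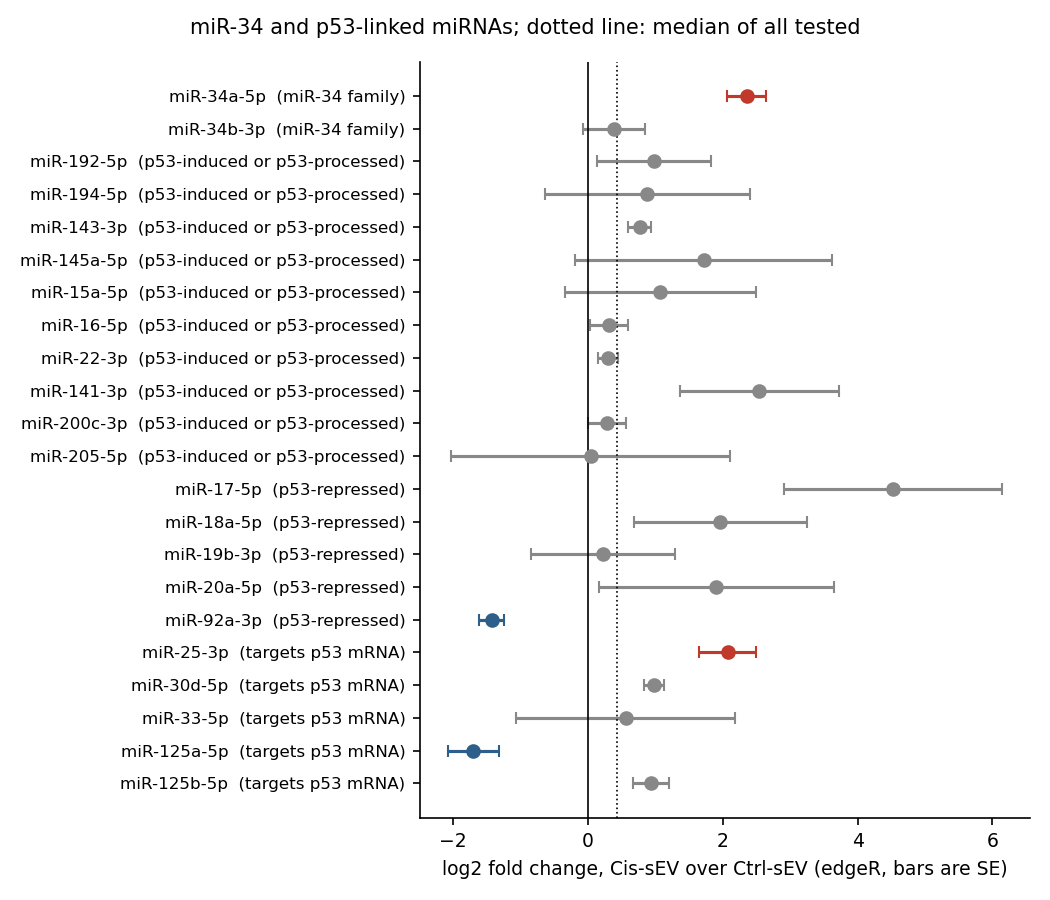
Fitted log2 fold change of miR-34a-5p, miR-34b-3p and the 20 tested p53-linked miRNAs (Cis-sEV over Ctrl-sEV, bars are SE); red is called higher, blue called lower, grey not called, and the dotted line at 0.44 is the median of all tested miRNAs. miR-34a-5p and miR-25-3p are the called-higher entries, miR-92a-3p and miR-125a-5p the called-lower ones, and several grey entries have wide bars.

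The miRNAs whose log2 levels followed miR-34a-5p most closely over the 6 libraries were miR-143-3p (Pearson r = 0.996), miR-23a-3p (0.989), miR-181c-5p (0.987), miR-218-5p (0.987) and miR-25-3p (0.984). These are descriptions over 6 points that fall into 2 groups and share library depth. Their own log2 fold changes were smaller than that of miR-34a-5p, at 0.77, 0.64, 1.58, 1.45 and 2.07.

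The labelled tissue was checked with miRNAs known for single cell types. The hair cell miRNAs miR-183-5p, miR-96-5p and miR-182-5p were present in every library, with a summed level of 50049 to 73379 CPM with cisplatin and 55946 to 73189 with PBS. The sum covers members that differed: miR-96-5p was called higher (log2 fold change 2.08, adjusted p = 0.0142 from edgeR), while miR-183-5p was at -0.49 (adjusted p = 0.0419), under the limit on size, and miR-182-5p at 0.18 (adjusted p = 0.782). The liver miRNA miR-122-5p stood at 898 to 1229 CPM with cisplatin and 6631 to 8929 with PBS, and the erythrocyte miRNAs, of which both tested were called lower, summed to 977 to 1190 and 1647 to 3736. Of the multiciliated-cell list only miR-449a-5p had a row, at 4.23 to 29.1 CPM with cisplatin and 0 to 111 with PBS. Of 3 neuronal miRNAs, miR-124-3p, with 0 reads in Ctrl-sEV, was called higher. The more abundant miR-128-3p (log2 fold change 1.64, adjusted p = 0.510) and miR-9-5p (0.15, adjusted p = 0.705, both from edgeR) were not called. The 1 muscle miRNA tested was called higher, and the 1 leukocyte miRNA tested was not called. Their part in the miR-34 values was not tested.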

How the data were processed

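Small RNA of 3 Cis-sEV and 3 Ctrl-sEV samples was measured. The authors isolated sEV by differential centrifugation, filtration and ultracentrifugation, selected RNA of 18 to 30 nt on a gel, sequenced it on DNBSEQ, aligned it with Bowtie2 to GRCm38.p6 (both also in the submitters' processing notes), annotated it with AASRA and cmsearch, and deposited raw counts of reads on each mature miRNA. The same table holds a mean signal per group, made by the authors and deposited as an average, and their own comparison columns, neither of which was used. RT-qPCR was not analysed here.

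Counts were tested with edgeR 4.0.16 (R 4.3.3) by quasi-likelihood with TMM factors, from 1.10 to 1.18 for Cis-sEV libraries and from 0.761 to 0.997 for the controls, after filterByExpr, which asks for the CPM of 10 reads at the median library size (8.19 CPM) in at least 3 libraries and for 15 reads over all, without covariates, on the whole table. The script was tested on simulated data. Alternatives used DESeq2 1.42.0, limma 3.58.1 (voom), other scalings and minimums, predicted miRNAs left out, the replicate number as a block, and each library left out. For bounds on level, a group at 0 reads was set to 3 reads over the summed TMM-scaled depth of its libraries. For bounds on ratios, the 3 reads were set over the group's summed reads of the other miRNA. In a single library 3 reads come to 1.67 to 1.74 CPM for Cis-sEV and 4.17 to 5.67 CPM for Ctrl-sEV, values not used for the bounds. Log2 ratios within a library added 0.5 read to each count, and levels were compared between miRNAs on log2(CPM + 1). Intervals (95%) and limits cover counting error only, since copies made by PCR were not told apart. Python 3.11.15, pandas 2.3.3, numpy 2.4.6, scipy 1.17.1 and matplotlib 3.10.9 served for the rest. Hairpins and loci are from RefSeq, which holds a mature entry for 3 of the 4 members, and GENCODE M21, both on GRCm38.

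The members and lists were chosen with earlier results of these data known. The miRNAs named are the members, rows with their seed, the p53-linked and marker lists, those above miR-34a-5p by fold change and the 5 most like it. miR-34b-3p and the ratios that use it or miR-34c-3p singly, and the count of miRNAs of like level, were added after the data were seen.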

Additional observations from a re-analysis of the deposited data

How the results depend on the processing

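miR-34a-5p was called and miR-34b-3p was not under all 16 alternatives of each. With libraries left out in turn the log2 fold change was 2.19 to 2.62 for miR-34a-5p and 0.08 to 0.55 for miR-34b-3p, and the log2 lower bound, with factors fitted again, was 5.31 to 6.18 for miR-34c-3p (adjusted p = 0.0120 to 0.0899 from edgeR) and 1.39 to 2.21 for miR-34c-5p, which was called without each Ctrl-sEV library. Tested from 5 reads in 3 libraries, miR-34c-5p was called (bound 2.18), which made 2 rows with the miR-34 seed called, against 1 to 2 with libraries left out. With 0 reads in Ctrl-sEV, miR-34c-5p could only come out higher in any fit that tested it. Replicate numbers showed no sign of pairing the samples, though 3 numbers are too few to exclude it. Deviations of same-numbered libraries correlated at -0.0495, -0.176 and -0.0147, and 0 of 6 libraries correlated best with their own number. With the replicate number as a block 24 miRNAs were called in place of 106, 1 miR-34 row in place of 2, and miR-34c-3p, at the same bound of 6.07, had an adjusted p of 0.161 from edgeR. limma-voom called 43 miRNAs. Leaving out a library gave 53 to 169 called miRNAs (53, 57 and 70 without Cis-sEV libraries 1, 2 and 3, and 169 without Ctrl-sEV library 3) and 1 to 3 miR-34 rows. p53-linked calls, 3 in the main test, were 5 by total reads, 5 from 5 reads in 3 libraries, 6 with no limit on fold change, and 2 to 9 with libraries left out, 9 of them without Ctrl-sEV library 3. The cause was not tested. The median log2 fold change of all tested miRNAs was 0.44 by TMM, 0.37 by DESeq2 factors, 0.80 by total reads, 0.41 by TMMwsp and 0.22 by upper quartile.

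The log2 ratio of Mir34b/c to Mir34a, lower in Cis-sEV, turned to 0.71 higher when only 5p arms were counted, a value set by the reads added to counts of 0. That of miR-34c-5p to miR-34a-5p was -0.24 with 1 read added (exact p = 0.5) and 2.999 with 0.1 read (0.53 to 0.94 with libraries left out). Those of miR-34c-3p were 5.59 and 8.90 against miR-34b-3p and 3.56 and 6.88 against miR-34a-5p. The ratio of family shares was 5.22 to 6.64 with libraries left out. It was 4.60 on TMM-scaled library sizes and 4.19 without the reads of the 10 most abundant miRNAs. Depth limits miR-34c-5p most, since under 6 reads of it would fall in any Ctrl-sEV library at its Cis-sEV share.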
